A study of Mus musculus with 9 samples.

Results

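Nonsense-mediated decay (NMD) factors were examined in N2A cells, a mouse neuroblastoma line, after depletion of EXOSC3 or DDX1. The genes are Upf1, Upf2, Upf3a, Upf3b, Smg1, Smg5, Smg6, Smg8 and Smg9, 9 of the 24318 genes listed in each of 2 tables, and they were chosen by name. All 9 had a mean of at least 1 FPKM (fragments scaled by transcript length and sequencing depth) and entered the test in both tables. The 3 groups of 3 libraries came from cells transfected with scramble siRNA (genotype WT in the labels), EXOSC3 siRNA (siEXOSC3, labelled EXOSC3 knockdown) or DDX1 siRNA (siDDX1, labelled DDX1 knockdown). All groups are labelled Untreated, and all went through the same lipid transfection. The replicates were separate plates of the same line, and siRNA depletion leaves part of the target in place. EXOSC3 is a cap subunit of the RNA exosome, the complex that degrades RNA from its 3′ end, and DDX1 is a DEAD-box RNA helicase.

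NMD destroys mRNAs on which translation ends too early, typically where an exon junction complex still sits downstream of the stop codon. The helicase UPF1 is loaded at the terminating ribosome, is bridged to the junction by UPF2 and UPF3A or UPF3B, and is phosphorylated by the kinase SMG1, which SMG8 and SMG9 hold in check. Phosphorylated UPF1 recruits SMG6, an endonuclease, and SMG5, which helps bring in decapping and deadenylation enzymes. The mRNAs of several of these factors are themselves known as NMD substrates, through long 3′UTRs or short upstream reading frames, so the pathway is known to feed back on its own parts. The exosome removes the upstream fragments that SMG6 cleavage leaves, which places EXOSC3 downstream of the pathway.

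Sequences upstream of the start site are shown for the 4 NMD factors that were lower together in siEXOSC3 (Upf1, Smg5, Smg8 and Smg9) and for Upf3a and Upf3b, paralogs that lay on opposite sides of scramble in siDDX1. They are the 250 bases before the RefSeq start on GRCm38.p6, 5′ to 3′ on the strand of the gene, and capitals mark the motif matches described below.
Upf1 (chr8:70353280-70353529, minus strand): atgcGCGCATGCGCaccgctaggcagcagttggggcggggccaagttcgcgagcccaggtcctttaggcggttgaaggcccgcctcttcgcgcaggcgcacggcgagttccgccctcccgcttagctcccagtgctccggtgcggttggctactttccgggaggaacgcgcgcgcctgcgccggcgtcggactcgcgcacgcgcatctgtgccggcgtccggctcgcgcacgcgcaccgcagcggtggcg
Smg5 (chr3:88336010-88336259, plus strand): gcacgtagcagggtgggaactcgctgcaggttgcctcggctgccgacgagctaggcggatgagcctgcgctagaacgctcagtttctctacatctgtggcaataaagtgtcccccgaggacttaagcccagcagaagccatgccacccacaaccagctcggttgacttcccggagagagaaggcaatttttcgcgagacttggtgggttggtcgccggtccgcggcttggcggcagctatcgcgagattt
Smg8 (chr11:87086778-87087027, minus strand): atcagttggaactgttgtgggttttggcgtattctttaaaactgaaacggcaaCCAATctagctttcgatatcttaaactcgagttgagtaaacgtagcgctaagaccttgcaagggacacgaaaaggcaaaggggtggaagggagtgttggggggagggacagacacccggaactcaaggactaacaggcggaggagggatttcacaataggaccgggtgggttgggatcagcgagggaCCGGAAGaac
Smg9 (chr7:24399378-24399627, plus strand): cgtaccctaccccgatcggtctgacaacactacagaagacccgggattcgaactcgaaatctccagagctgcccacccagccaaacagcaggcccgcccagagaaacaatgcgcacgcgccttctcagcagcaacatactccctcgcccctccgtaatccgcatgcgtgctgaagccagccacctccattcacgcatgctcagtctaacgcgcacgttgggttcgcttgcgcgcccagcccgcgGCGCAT
Upf3a (chr8:13785365-13785614, plus strand): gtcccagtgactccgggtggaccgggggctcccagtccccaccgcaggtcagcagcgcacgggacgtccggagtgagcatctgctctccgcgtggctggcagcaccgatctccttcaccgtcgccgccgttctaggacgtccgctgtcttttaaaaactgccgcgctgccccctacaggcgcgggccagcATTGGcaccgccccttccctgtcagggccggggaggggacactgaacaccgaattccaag
Upf3b (chrX:37110323-37110572, minus strand): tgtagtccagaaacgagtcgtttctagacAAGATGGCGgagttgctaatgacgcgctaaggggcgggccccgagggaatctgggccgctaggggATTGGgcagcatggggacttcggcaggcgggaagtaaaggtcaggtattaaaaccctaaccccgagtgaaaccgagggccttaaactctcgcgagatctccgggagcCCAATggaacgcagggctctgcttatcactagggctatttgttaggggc
All 9 genes matched a RefSeq promoter, and the search window ran from 250 bases before to 50 bases after the start, on both strands, in 32851 promoters. The letters CCAAT (the CCAAT box) were in 4 of 9 NMD factors, Upf3a, Upf3b, Smg1 and Smg8, and in 37.4% of all promoters. The NRF1 core GCGCATGC was in 2 of 9, at position -246 of Upf1 and -6 of Smg9, and in 2.71% of all promoters. In both it overlaps its own reverse complement, and in Smg9 it runs past the start, so that only its first bases are printed. The ETS core CCGGAAG was in Smg8 alone among the 9 (8.86% of all promoters), the YY1 core AAGATGGCG in Upf3b alone (1.40%), and the TATA box letters TATAAA in none (13.6%). The 9 windows were rich in G and C, with a median of 66.0% (53.3% in Smg8 to 72.3% in Upf1) against 52.7% over all promoters. No motif was shared by all 4 factors that fell, and a match is a run of letters and not a measured binding site.

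Each table holds 1 knockdown and the same 3 scramble libraries, scaled apart by factors of 1.00793, 1.00782 and 1.01188, so every comparison stays within a table. Total depth is unknown from FPKM, and the step left by single fragments gave relative depths of 0.83 to 1.20 over the 9 libraries. The knockdowns were checked first. Exosc3 was at 6.84, 7.68 and 6.01 FPKM in siEXOSC3 replicates 1, 2 and 3, which is 15.5% of scramble (limma adjusted p = 1.11e-05), and Ddx1 at 28.0, 28.7 and 34.8 FPKM in siDDX1, 24.4% of scramble (adjusted p = 9.53e-05). Each target stood near scramble in the other knockdown, Ddx1 at 100.5% in siEXOSC3 and Exosc3 at 97.3% in siDDX1. Markers of the line were present at 3 FPKM or more in scramble for Hand2, Dbh, Mycn and Tubb3, and lower for Stmn2 (2.96 FPKM), Gata3 (2.27 FPKM) and Th (0.179 FPKM, siEXOSC3 table), while Ptprc, Aqp4 and Alb, markers of immune cells, astrocytes and hepatocytes, were listed at 0 in the scramble libraries. Of the other 5 markers of cells not in the culture, scramble in the siEXOSC3 table held Pecam1 (endothelium) at 4.13 FPKM, close to Dbh at 4.53 and Mycn at 3.77, Mbp (oligodendrocytes) at 2.12, Cd68 (immune cells) at 1.18, Col1a1 (fibroblasts) at 0.176 and Gfap (astrocytes) at 0.038 FPKM.

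In scramble cells the 9 transcripts spanned a 4.14-fold range of FPKM, a level scaled by transcript length, in the siEXOSC3 table. Upf3a was the highest at 48.6 ± 1.87 FPKM (SD, n = 3) and made up 23.1% of the summed FPKM of the 9. It was followed by Smg5 at 31.7 ± 0.836, Upf1 at 29.1 ± 1.32 and Smg1 at 23.2 ± 0.833 FPKM. Each of these was separated from its neighbours in the order, with no overlap between libraries. Upf3b (19.4 ± 0.971 FPKM) and Upf2 (17.5 ± 0.957 FPKM) overlapped with each other, as did the lowest pair, Smg8 (13.4 ± 0.718 FPKM) and Smg6 (11.7 ± 1.02 FPKM), and Smg9 lay between the pairs at 15.2 ± 1.02 FPKM. Against all genes tested, the levels ran from above 44.3% of genes (Smg6) to above 83.3% (Upf3a). The order of means was the same in the knockdowns except that Smg6 stood above Smg8 in siEXOSC3 and Upf2 above Upf3b in siDDX1.

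**Figure D1:**
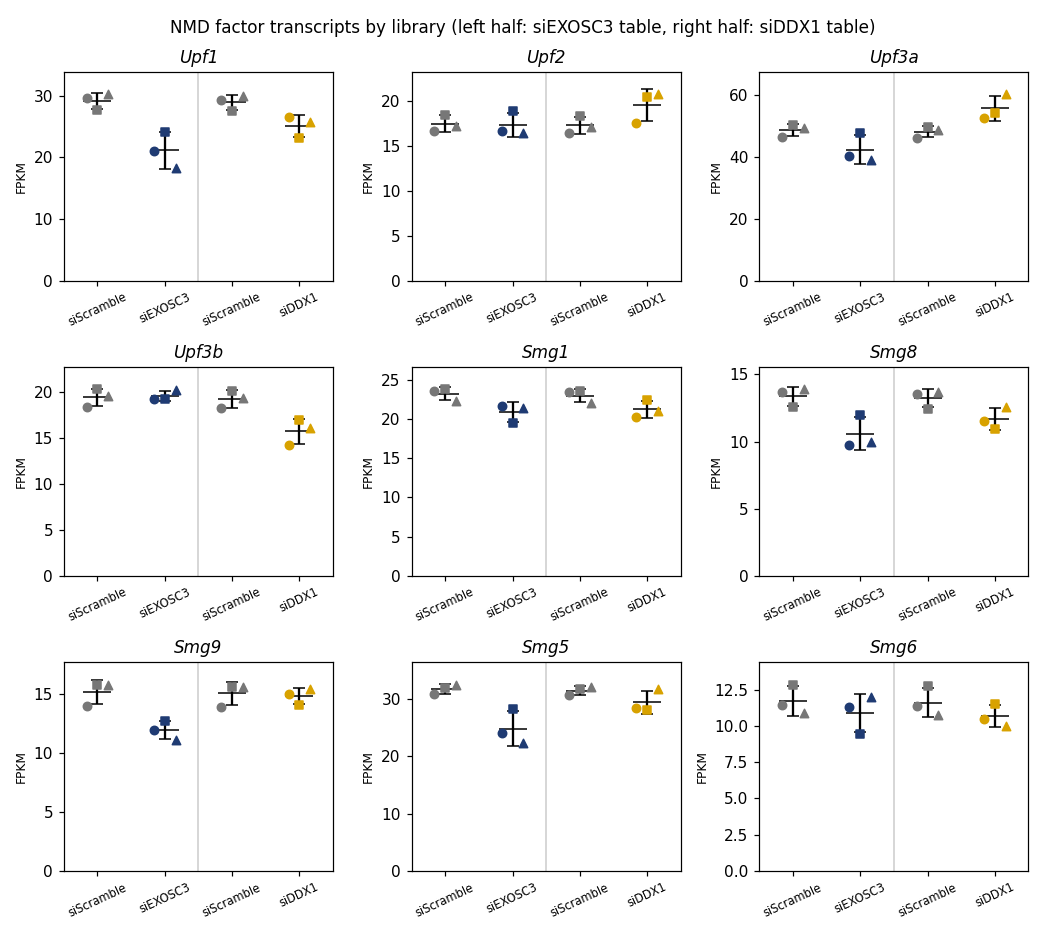
FPKM of each NMD factor (y axis, from 0) in the 3 scramble and 3 knockdown libraries of each table (x axis: siEXOSC3 table left of the grey line, siDDX1 table right). Circles, squares and triangles are replicates 1, 2 and 3, bars are mean ± SD; in siEXOSC3 the libraries of Upf1, Smg1, Smg8, Smg9 and Smg5 all lie below scramble, and in siDDX1 those of Upf3a lie above and those of Upf1 and Upf3b below.

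In EXOSC3-depleted cells 4 of the 9 NMD factors decreased, Upf1, Smg5, Smg8 and Smg9, each to between 72.4% and 79.1% of scramble, and none increased. Over all 11242 genes tested, 15.7% were called lower and 16.7% higher. The median log2 fold change of the 9 was -0.20, beside -0.014 over all genes tested. Libraries did not overlap with scramble for 5 of the 9, all lower, where the share over all genes was 25.9% lower and 23.8% higher, and 5 of the 9 had an unadjusted p under 0.05, as did 45.4% of all genes. The FPKM of the 9 summed to between 170.7 and 191.7 in the siEXOSC3 libraries and to between 204.6 and 213.4 in scramble. In bulk RNA, fewer cells that express a gene and less of its RNA per cell cannot be told apart.

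In DDX1-depleted cells 0 of the 9 NMD factors passed the limma test, where 5.03% of all 11104 genes tested were called lower and 5.61% higher. An unadjusted p under 0.05 was reached by 3 of the 9, Upf1, Upf3a and Upf3b, and by 30.1% of all genes. Libraries did not overlap with scramble for 2 that were lower, Upf1 and Upf3b (17.8% of all genes), and for 1 that was higher, Upf3a (17% of all genes). The median log2 fold change of the 9 was -0.11, beside -0.00059 over all genes, and their summed FPKM of 196.6 to 213.4 overlapped with the 202.9 to 211.7 of scramble. With 1 library left out, the 559 genes called lower and 623 called higher over the whole table became 58 and 100 (without scramble replicate 1), 234 and 286 (scramble replicate 2), 65 and 95 (scramble replicate 3), 218 and 231 (siDDX1 replicate 1), 173 and 176 (siDDX1 replicate 2) or 1706 and 1818 (siDDX1 replicate 3), so the share over all genes moves with the libraries used. The knockdowns share their scramble libraries, so their values are given side by side below and are not compared.

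**Figure D2:**
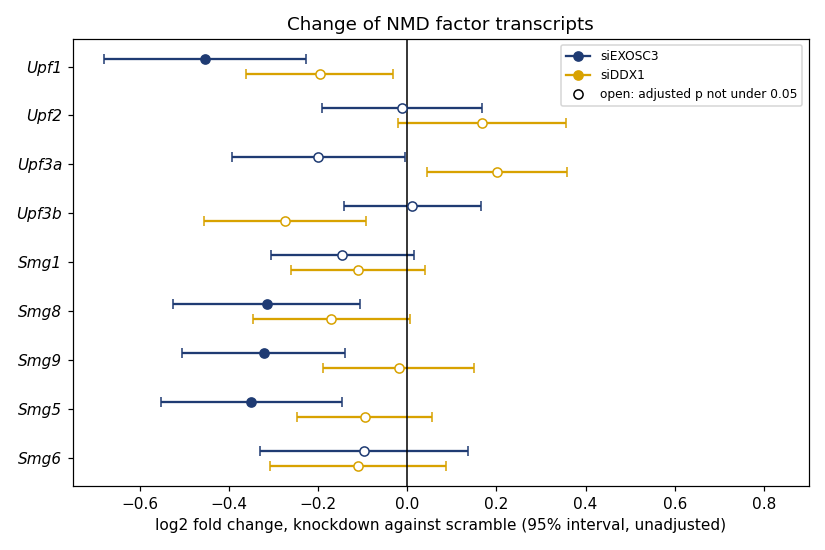
Log2 fold change of FPKM (x axis, knockdown against scramble of the same table, pseudocount 1) for each NMD factor, siEXOSC3 in blue and siDDX1 in yellow, with unadjusted 95% intervals from limma; filled points have an adjusted p under 0.05. Upf1, Smg8, Smg9 and Smg5 are the filled points, all in siEXOSC3 and all below 0.

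Upf1, the ATP-dependent helicase on which all branches of NMD depend, gave the lowest log2 fold change of the 9 in siEXOSC3. It stood at 21.0, 24.1 and 18.3 FPKM in siEXOSC3 replicates 1, 2 and 3 and at 29.6, 27.7 and 30.2 FPKM in scramble. Every siEXOSC3 library lay below every scramble library, and replicate 2 lay closest. The transcript fell by 0.45 on the log2 scale (SE 0.0991, 95% interval -0.68 to -0.23, limma adjusted p = 0.0113). In the siDDX1 table Upf1 was at 26.5, 23.1 and 25.7 FPKM against 29.3, 27.5 and 29.9 FPKM. These libraries also lay below scramble, at 86.9%, but the log2 fold change of -0.20 (95% interval -0.36 to -0.032) did not pass the test (adjusted p = 0.111). With GC and length trends removed it did (adjusted p = 0.046). The Upf1 gene (NCBIM37, the mm9 build, chromosome 8, 72855421 to 72877172, minus strand) overlaps Cers1 and Gdf1 on the other strand, from which nondirectional libraries cannot separate its reads. Cers1 was at 4.84 ± 1.05 FPKM in siEXOSC3 and 5.92 ± 0.800 FPKM in scramble (SD, n = 3) and Gdf1 was below 0.1 FPKM in all libraries, both far under Upf1.

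Upf2, the adaptor between UPF1 and the UPF3 proteins, stood at 16.7, 18.9 and 16.4 FPKM in siEXOSC3 and at 16.6, 18.5 and 17.3 FPKM in scramble. The groups overlapped throughout, with a log2 fold change of -0.01 (95% interval -0.19 to 0.17, adjusted p = 0.911). The siDDX1 libraries gave 17.5, 20.5 and 20.8 FPKM against 16.5, 18.4 and 17.1 FPKM. Here 2 of 3 libraries lay above all scramble libraries, and the log2 fold change of 0.17 (95% interval -0.021 to 0.36) did not pass (adjusted p = 0.210). Upf2 lies on chromosome 2 (5872515 to 5977749, plus strand), with no overlapping gene.

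Upf3a and Upf3b encode paralogous proteins that link UPF2 to the exon junction complex, UPF3B being the stronger activator of NMD and encoded on the X chromosome. Upf3a was at 40.2, 47.6 and 39.0 FPKM in siEXOSC3 and at 46.5, 50.1 and 49.1 FPKM in scramble. Replicate 2 lay inside the scramble range, the other libraries below it. The log2 fold change of -0.20 (95% interval -0.39 to -0.0056) did not pass (adjusted p = 0.102). Without siEXOSC3 replicate 2 it passed (adjusted p = 0.0095), as it did with GC and length trends removed (adjusted p = 0.043). In siDDX1 Upf3a was at 52.5, 54.0 and 60.1 FPKM against 46.1, 49.7 and 48.6 FPKM. All siDDX1 libraries lay above scramble, at 115% on average, with a log2 fold change of 0.20 (95% interval 0.044 to 0.36, adjusted p = 0.0937). The gene lies on chromosome 8 (13785615 to 13798538, plus strand).

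Upf3b was at 19.2, 19.3 and 20.2 FPKM in siEXOSC3 and at 18.4, 20.3 and 19.6 FPKM in scramble, and the groups overlapped (log2 fold change 0.01, 95% interval -0.14 to 0.16, adjusted p = 0.911). DDX1-depleted cells had 14.3, 17.0 and 16.0 FPKM against 18.2, 20.1 and 19.4 FPKM. All siDDX1 libraries lay below scramble, at 81.9%. The log2 fold change of -0.27 (95% interval -0.46 to -0.093) did not pass (adjusted p = 0.0612). Without siDDX1 replicate 3 it passed (adjusted p = 0.026). Upf3b lies on chromosome X (34631673 to 34650335, minus strand).

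The ratio of Upf3a to Upf3b FPKM within a library does not depend on how the library was scaled. It was 2.53, 2.47 and 2.51 in scramble, a spread of 0.0312 (SD, n = 3) around 2.50. In siDDX1 it was 3.68, 3.18 and 3.75, all above scramble, with a log2 difference of 0.50. The two-sided exact permutation test gave p = 0.1, the smallest that 3 against 3 libraries allow. In siEXOSC3 the ratio was 2.09, 2.47 and 1.93, and replicate 2 fell within the scramble values (log2 difference -0.22, exact p = 0.2). The siDDX1 ratio combined values in which Upf3a was higher and Upf3b lower than scramble in every library. The ratio of Smg8 to Smg9, whose proteins bind SMG1 together, was 0.975, 0.797 and 0.878 in scramble and 0.815, 0.942 and 0.895 in siEXOSC3. These overlapped, with a log2 difference of 0.0037 (exact p = 1), while both transcripts had decreased. In siDDX1 it was 0.766, 0.778 and 0.814 (log2 difference -0.16, exact p = 0.2), and the highest of these lay above the lowest scramble value.

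**Figure D3:**
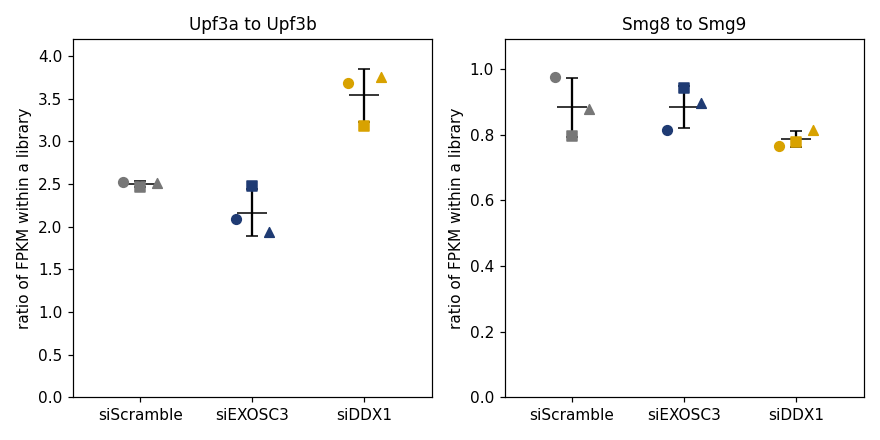
Ratio of Upf3a to Upf3b (left) and of Smg8 to Smg9 (right) FPKM within each library (y axis, from 0) in scramble, siEXOSC3 and siDDX1 cells; symbols are replicates 1 (circle), 2 (square) and 3 (triangle), bars are mean ± SD. The 3 siDDX1 libraries lie at 3.18 to 3.75 on the left, above all others, whereas the groups overlap on the right.

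Smg1, the kinase that phosphorylates UPF1, was at 21.7, 19.5 and 21.5 FPKM in siEXOSC3 and at 23.6, 23.8 and 22.3 FPKM in scramble. All siEXOSC3 libraries were lower, at 90.0% of scramble, but the log2 fold change of -0.15 (95% interval -0.31 to 0.014) did not pass (adjusted p = 0.140). In siDDX1 it was at 20.3, 22.4 and 21.0 FPKM against 23.4, 23.6 and 22.0 FPKM, with overlap (92.3% of scramble, log2 fold change -0.11, 95% interval -0.26 to 0.039, adjusted p = 0.287). Smg1 lies on chromosome 7 (125274832 to 125387151, minus strand) and overlaps the snoRNA gene SNORA71 on the other strand.

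Smg8 and Smg9, whose products restrain SMG1, both decreased in siEXOSC3. Smg8 was at 9.76, 12.0 and 9.98 FPKM against 13.7, 12.5 and 13.9 FPKM in scramble. It fell by 0.32 on the log2 scale (SE 0.0914, 95% interval -0.52 to -0.11, adjusted p = 0.0307), with no overlap, although siEXOSC3 replicate 2 came close to scramble replicate 2. Smg9 was at 12.0, 12.7 and 11.1 FPKM against 14.0, 15.7 and 15.8 FPKM, well apart from scramble in all libraries. It also fell by 0.32 (SE 0.0802, 95% interval -0.51 to -0.14, adjusted p = 0.0182). In siDDX1 Smg8 was at 11.5, 10.9 and 12.5 FPKM against 13.5, 12.4 and 13.7 FPKM, overlapping at 88.0% of scramble (log2 fold change -0.17, 95% interval -0.35 to 0.0050, adjusted p = 0.176). Without siDDX1 replicate 3 it passed (adjusted p = 0.045). Smg9 in siDDX1 was at 15.0, 14.0 and 15.4 FPKM against 13.9, 15.6 and 15.6 FPKM (98.5%, log2 fold change -0.02, 95% interval -0.19 to 0.15, adjusted p = 0.887). The annotation lists Smg8 as 1200011M11Rik on chromosome 11 (86891234 to 86900276, minus strand) and Smg9 as 1500002O20Rik on chromosome 7 (25184638 to 25207797, plus strand). Smg8 overlaps the pseudogene Gm9378 on the other strand, and nondirectional libraries cannot separate reads of the pair there.

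Smg5, the adaptor that carries phosphorylated UPF1 to decay enzymes and phosphatase, was at 24.0, 28.2 and 22.2 FPKM in siEXOSC3 and at 30.8, 31.9 and 32.5 FPKM in scramble. The groups did not overlap, and replicate 2 was again the siEXOSC3 library nearest to scramble. Smg5 fell by 0.35 on the log2 scale (SE 0.0890, 95% interval -0.55 to -0.15, adjusted p = 0.0197). In DDX1-depleted cells Smg5 was at 28.4, 28.0 and 31.7 FPKM against 30.6, 31.6 and 32.1 FPKM, overlapping with scramble (93.5%, log2 fold change -0.10, 95% interval -0.25 to 0.056, adjusted p = 0.361). It lies on chromosome 3 (88140182 to 88166259, plus strand).

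Smg6, the endonuclease that cuts the target near the stop codon, overlapped with scramble in both knockdowns. It was at 11.3, 9.44 and 12.0 FPKM in siEXOSC3 against 11.4, 12.9 and 10.9 FPKM (93.1%, log2 fold change -0.10, 95% interval -0.33 to 0.14, adjusted p = 0.481). In siDDX1 it was at 10.5, 11.5 and 10.0 FPKM against 11.3, 12.8 and 10.7 FPKM (91.9%, log2 fold change -0.11, 95% interval -0.31 to 0.086, adjusted p = 0.417). Smg6 lies on chromosome 11 (74739325 to 74977950, plus strand) and holds Srr, a serine racemase gene, on the other strand. Srr was at 7.89 ± 0.0987 FPKM in siEXOSC3 and 7.11 ± 0.316 FPKM in scramble (SD, n = 3), a level close to that of Smg6, so reads of the pair cannot be told apart where they overlap.

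The siEXOSC3 calls rested on few libraries. With siEXOSC3 replicate 1 left out, Upf1 alone passed (adjusted p = 0.043), while Smg5, Smg8 and Smg9 stood at 0.072, 0.111 and 0.060. Without replicate 2 all 4 passed, with adjusted p between 0.0014 and 0.0084, together with Upf3a. Without replicate 3 Smg8 was lost (0.056). Leaving out scramble replicate 1 left Smg9 (0.038) and put Upf1, Smg5 and Smg8 at 0.0501, 0.061 and 0.110. Without scramble replicate 2 Upf1 alone remained (0.030), with Smg5, Smg8 and Smg9 at 0.062, 0.053 and 0.066, and without scramble replicate 3 none did, with Upf1, Smg5, Smg8 and Smg9 at 0.051, 0.073, 0.103 and 0.070. The log2 fold changes of these 4 stayed below 0 throughout, between -0.55 and -0.27. Over all genes the 1767 called lower and 1877 called higher became 583 and 1027 without scramble replicate 1, 932 and 1324 without scramble replicate 2, 806 and 1186 without scramble replicate 3, 867 and 1175 without siEXOSC3 replicate 1, 2508 and 2379 without replicate 2 and 1526 and 1705 without replicate 3. In 6 of the 9 NMD factors siEXOSC3 replicate 2 was the library nearest the scramble mean, as it was for 51.6% of all genes tested, and Exosc3 itself was highest there.

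**Figure D4:**
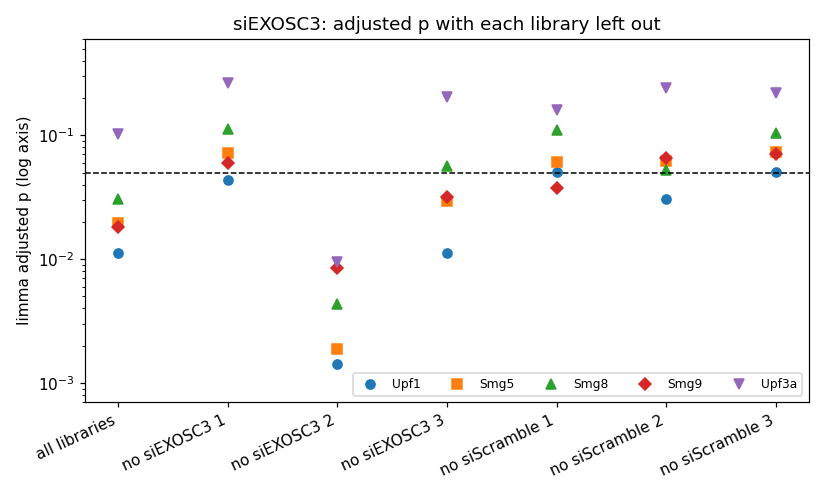
Adjusted p from limma (y axis, log scale) of Upf1, Smg5, Smg8, Smg9 and Upf3a in siEXOSC3 against scramble, with all libraries and with each library left out in turn (x axis); the dashed line is 0.05. Without siEXOSC3 replicate 2 all 5 lie under the line, and without scramble replicate 3 none do.

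Other measures moved with EXOSC3 depletion beside these transcripts. Of 7 tested markers of neuroblastoma and neurons, 4 rose in siEXOSC3 (Dbh, Mycn, Stmn2 and Tubb3; 16.7% of all genes rose), the list of 8 summing to between 359.8 and 415.6 FPKM against 276.5 to 318.2 FPKM in scramble. The 8 markers of other cells summed to between 8.77 and 12.5 FPKM against 6.69 to 8.17 FPKM, 1 of the 2 tested being called, Pecam1 (log2 fold change 0.67, adjusted p = 0.008), where 16.7% of all genes were called higher. Cd68, Col1a1 and Gfap were too low to be tested. Cd68 was at 0.645 FPKM against 1.18 FPKM in scramble, Col1a1 at 0.392 against 0.176 FPKM and Gfap at 0.087 against 0.038 FPKM. Ptprc, Aqp4 and Alb were at 0 in all siEXOSC3 libraries. The part of either list of markers in the lower NMD factors was not tested. The 4 factors that fell have transcripts of 50.2% to 60.3% GC (median 57.2%) and the other 5 of 42.5% to 57.4% (median 44.9%), beside a median of 50.6% over all genes tested. With GC and length trends removed, a setting chosen after seeing the data, log2 fold changes were -0.52 for Upf1, -0.41 for Smg9, -0.39 for Smg5 and -0.29 for Smg8. The part of GC or length in the lower NMD factors was not tested.

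The annotated 3′UTR is 961 bases in Upf1, 1229 in Smg5, 221 in Smg8 and 400 in Smg9, and in the other 5 it runs from 64 in Upf3a to 4223 in Smg1, beside a median of 884 over all genes tested. The medians were 680.5 bases in the 4 lower factors and 1261 in the other 5, a difference that was not tested. An ATG in the 5′UTR is annotated for 2 of the 4 (Smg5 and Smg9) and for 2 of the other 5 (Upf2 and Smg1), and for 46.9% of genes tested. Smg1, with the longest 3′UTR of the 9, was at 90.0% and 92.3% of scramble in siEXOSC3 and siDDX1. Neither change passed the limma test (adjusted p = 0.140 and 0.287). Smg6 (1498 bases) was at 93.1% and 91.9%, and Upf2 (1261 bases) at 99.2% and 113%. The part of 3′UTR length in these values was not tested.

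The remaining machinery was read from lists of genes by role. None of 6 further NMD factors passed in either knockdown by limma (adjusted p under 0.05), and an unadjusted p under 0.05 was reached by 1 of the 6 in siEXOSC3 (45.4% of all genes) and by 3 in siDDX1 (30.1% of all genes). Of 6 exon junction complex genes, 1 decreased in siEXOSC3, near the 15.7% of all genes that did. It was Eif4a3, which encodes the helicase that clamps the complex on RNA. Eif4a3 was at 156.5, 169.3 and 141.7 FPKM against 202.7, 188.9 and 190.9 FPKM (80.2%, adjusted p = 0.0180), with no overlap. None of the 6 passed in siDDX1. The release factor and poly(A)-binding genes of translation termination gave no call among 3 tested in either knockdown, with 1 in each at an unadjusted p under 0.05, and Gspt2 was listed at 0 throughout. The call of Eif4a3 was lost without siEXOSC3 replicate 1 (0.059), scramble replicate 1 (0.082) or scramble replicate 3 (0.054).

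Of 6 genes for enzymes that finish the decay, 2 decreased in siEXOSC3, where 15.7% of all genes were called lower. Both act in decapping, but the 4 that were not called also include decapping genes. The highest log2 fold change of the list, 0.13, was that of a decapping gene. Dcp1a, which encodes the activator of decapping, was at 4.41, 3.97 and 3.92 FPKM against 5.99, 6.10 and 6.15 FPKM (67.5%, log2 fold change -0.47, adjusted p = 0.0048). Dcp2, the decapping enzyme itself, was at 8.14, 8.56 and 7.14 FPKM against 11.6, 10.2 and 11.1 FPKM (72.6%, log2 fold change -0.42, adjusted p = 0.0102). Neither overlapped with scramble, and only Dcp2 lost its call when a library was left out, without scramble replicate 1 (0.053). In siDDX1 none of the 6 passed, with log2 fold changes of -0.16 for Dcp1a and -0.27 for Dcp2 and up to 0.35 in the list. Without siDDX1 replicate 3 Dcp2 passed (adjusted p = 0.0049).

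Of 14 transcripts known as NMD substrates, 10 did not pass the test in siEXOSC3 and 9 did not in siDDX1. An unadjusted p under 0.05 was reached by 6 of the 14 in siEXOSC3 (45.4% of all genes) and by 6 in siDDX1 (30.1% of all genes). In siEXOSC3 the libraries of 5 lay wholly above scramble and of 1 wholly below (23.8% and 25.9% of all genes). In siDDX1 those of 4 lay above and of 1 below (17% and 17.8% of all genes). In siEXOSC3 4 of 14 increased and none decreased, with a median log2 fold change of 0.19 beside -0.014 over all genes, where 16.7% of all genes were called higher. The 4 were Cdkn1a, a cell-cycle inhibitor that p53 also induces, with a log2 fold change of 0.75 (73.6, 65.6 and 82.3 FPKM against 41.6, 44.4 and 44.5 FPKM, adjusted p = 0.0014), Nat9 with 0.63 (adjusted p = 0.0059), Ddit3, which encodes the stress factor CHOP and is also induced by ATF4, with 0.61 (adjusted p = 0.0145), and Gas5, a snoRNA host, with 0.37 (adjusted p = 0.0209). In siDDX1 4 of the 14 increased and 1 decreased, where 5.61% of all genes were called higher and 5.03% lower. The median of the list was 0.21, beside -0.00059 over all genes. Those that increased were Nat9 (28.5, 25.3 and 23.8 FPKM against 17.4, 17.4 and 20.4 FPKM, log2 fold change 0.47, adjusted p = 0.0184), Upp1 (0.54, adjusted p = 0.0215), Ddit3 (0.56, adjusted p = 0.0420) and Cdkn1a (0.24, adjusted p = 0.0451). Gadd45b, a growth-arrest gene, decreased from 6.62 ± 0.993 to 4.14 ± 0.169 FPKM (SD, n = 3, log2 fold change -0.56, adjusted p = 0.0170). Members of this list respond to stress and p53 signals as well, and the part of NMD in their change was not tested.

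Leaving out libraries touched these substrate calls unevenly. In siEXOSC3 Cdkn1a and Nat9 passed whichever library was left out. Ddit3 did not pass without siEXOSC3 replicate 1 (0.057) or scramble replicate 3 (0.061), nor Gas5 without siEXOSC3 replicate 1 (0.082), scramble replicate 1 (0.052) or scramble replicate 3 (0.077), and Upp1 passed without siEXOSC3 replicate 2 (0.019). In siDDX1 the calls held without replicate 3, where Gas5 joined them (0.027). Without siDDX1 replicate 1 Cdkn1a, Ddit3, Nat9 and Upp1 stood at 0.107, 0.108, 0.055 and 0.072, and without replicate 2 Cdkn1a, Ddit3, Nat9, Upp1 and Gadd45b at 0.155, 0.131, 0.061, 0.065 and 0.065. Without scramble replicate 1 Cdkn1a, Ddit3, Nat9 and Gadd45b stood at 0.176, 0.111, 0.095 and 0.059, without scramble replicate 2 Cdkn1a, Ddit3, Nat9 and Upp1 at 0.102, 0.101, 0.065 and 0.072, and without scramble replicate 3 Cdkn1a, Ddit3, Upp1 and Gadd45b at 0.123, 0.149, 0.096 and 0.060.

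**Figure D5:**
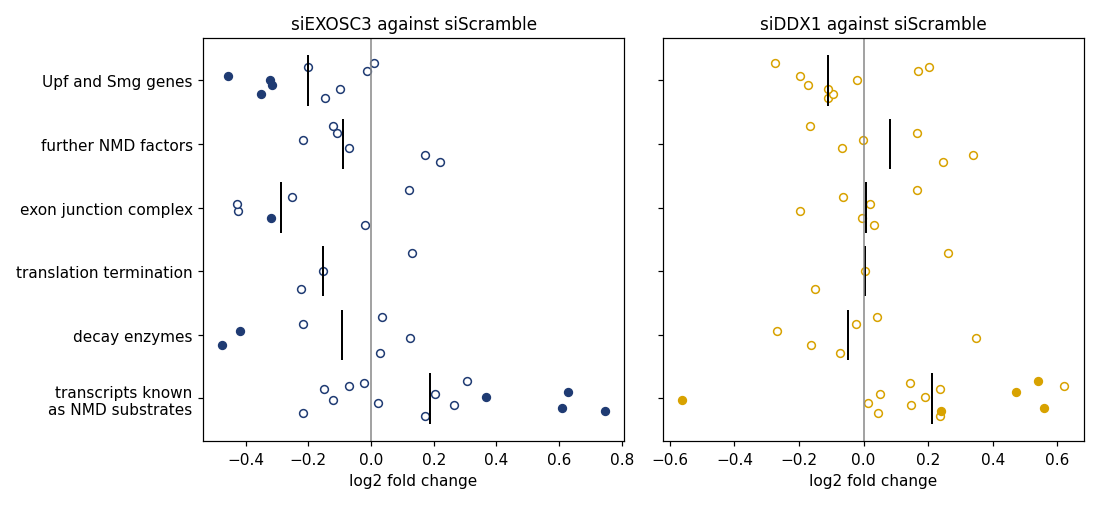
Log2 fold change (x axis) of every tested gene in 6 lists of the NMD pathway (rows), siEXOSC3 left and siDDX1 right; filled points have an adjusted p under 0.05, and the black line is the median of the list. The filled points of the Upf and Smg genes, exon junction complex and decay enzymes lie below 0, and those of the substrates above 0 except Gadd45b in siDDX1.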

How the data were processed

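RNA-seq was carried out on 9 libraries of rRNA-depleted, nondirectional RNA from N2A cells, 3 biological replicates each of scramble, siEXOSC3 and siDDX1. The submitters' processing notes name TopHat2 2.1.0, SAMtools and Cuffdiff 2.2.1, with mm9 as the genome. The authors deposited FPKM values of 24318 genes in 2 tables, each with 1 knockdown and the scramble libraries. Which annotation and which library scaling Cuffdiff was given is not given in the sources used here. The total depth is unknown, and no counting interval is given.

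Log2(FPKM + 1) was tested with limma 3.58.1 in R 4.3.3, with an intensity trend and no covariates, for genes that averaged at least 1 FPKM across the 6 libraries compared. Two-sided p-values were adjusted (Benjamini-Hochberg) over all genes tested, with a threshold of 0.05, and intervals (95%) are unadjusted. A fold change on this scale understates the change of low genes. Ratios were compared with a two-sided exact permutation test (SciPy 1.17.1). Figures were drawn with matplotlib 3.10.9.

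The NMD factors, the lists and the tests were chosen with earlier results of these data known. Every NMD factor, Exosc3 and Ddx1 are named, and of each other list at most 4 called genes per knockdown with the lowest adjusted p (a gene so named in 1 knockdown is also given where called in the other), beside genes that overlap an NMD factor or mark a cell type. Results were recomputed with a pseudocount of 0.1, without a filter or with a minimum mean of 5 FPKM, after quantile normalization or median centring, without the intensity trend, with a block for the replicate number, with an adjusted p-value under 0.01, with each library left out in turn and, chosen after seeing the data, with removal of GC and length trends (loess span 0.3). Positions and transcripts came from GENCODE vM1 on NCBIM37, the sequence of mm9, in which 95.0% of genes tested had a transcript, and promoters from RefSeq on GRCm38.p6.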

Additional observations from a re-analysis of the deposited data

Results flagged for a closer look

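Upf3a lay on opposite sides of scramble in the 2 knockdowns. It was at 87.1% of the scramble mean in siEXOSC3, with 3 of 3 libraries below that mean, and at 115% in siDDX1, with 3 of 3 libraries above it. Neither change passed the limma test (adjusted p = 0.102 and 0.0937). The ratio of Upf3a to Upf3b followed, with a mean of 2.17 ± 0.277 in siEXOSC3 and 3.54 ± 0.308 in siDDX1 (SD, n = 3), against 2.50 ± 0.0312 in scramble. The difference between the knockdowns was not tested.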

How the results depend on the processing

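Of the 4 NMD factors called lower in siEXOSC3, all 4 were called with a pseudocount of 0.1, a minimum mean of 5 FPKM, quantile normalization, median centring or no intensity trend, 3 without a filter on low FPKM or with the replicate block (Smg8 lost), 5 with GC and length trends removed (Upf3a added), and 0 at an adjusted p-value under 0.01. Leaving out 1 library gave between 0 and 5. In siDDX1 the 0 calls became 1 with the replicate block (Upf3b, adjusted p = 0.031), 1 with GC and length trends removed (Upf1), and between 0 and 2 with 1 library left out. The labels do not say whether the replicate numbers pair the samples. Deviations of same-numbered libraries correlated at 0.035, -0.310 and -0.126 in the siEXOSC3 table and at -0.012, 0.379 and 0.372 in the siDDX1 table. In siEXOSC3 0 of 3 knockdown libraries correlated best with their own number, and in siDDX1 2 of 3 did. Same-numbered libraries thus went together in part in siDDX1 and not in siEXOSC3. In siDDX1 the block moved the calls over all genes from 559 lower and 623 higher to 808 and 1085, and no filter moved them to 330 and 387. In siEXOSC3 the block moved them the other way, from 1767 lower and 1877 higher to 1059 and 1390. Log2 fold changes near 0 turned sign. Upf2 in siEXOSC3 was 0.011 with median centring, 0.020 with quantile normalization, 0.050 with GC and length trends removed and between -0.072 and 0.027 with 1 library left out. Smg9 in siDDX1 was 0.0059 with median centring and 0.0047 with quantile normalization, and with 1 library left out between -0.072 and 0.017. Upf3b in siEXOSC3 ran from -0.027 to 0.042 with 1 library left out. Ddx1 in siEXOSC3 was -0.0058 with quantile normalization and between -0.045 and 0.040 with 1 library left out, and Eif4a3 in siDDX1 was 0.022 with median centring and between -0.022 and 0.028. The Smg8 to Smg9 log2 difference ran from -0.068 to 0.077 in siEXOSC3 and from -0.24 to -0.091 in siDDX1, the Upf3a to Upf3b difference from -0.32 to -0.14 and from 0.45 to 0.57. Cdkn1a in siDDX1 lost its call with no filter, no intensity trend, quantile normalization or GC and length trends removed (adjusted p between 0.057 and 0.069), Ddit3 with no filter or no intensity trend (0.093 and 0.051) and Upp1 with no filter (0.057), and Gas5 gained one with the replicate block (0.048). The cause of these changes was not tested.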
